A study of Homo sapiens with 6 samples.

Results

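The BCL2 family sets the threshold at which a cell dies through its mitochondria. Its mRNAs were measured here in leukemia cells in which COX4I1, a subunit of cytochrome c oxidase (Complex IV of the respiratory chain), had been targeted with Cas9. The 10 genes described were taken by symbol from the 19845 gene symbols of the count table, a choice by family membership made with earlier results of these data known. They are the anti-apoptotic genes BCL2, MCL1 and BCL2L1, the effectors BAX and BAK1, and the BH3-only genes BCL2L11, BBC3, PMAIP1, BID and BAD. All 10 were present, and all 10 passed the filter on low counts, which left 11861 genes to test. The question was whether targeting COX4I1, which the study combined with the BCL2 inhibitor venetoclax, went with a change in the mRNAs of this family.

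Anti-apoptotic proteins such as BCL2, MCL1 and BCL-XL (encoded by BCL2L1) hold their pro-apoptotic relatives in check at the outer mitochondrial membrane. BH3-only proteins are stress sensors that occupy the groove of the anti-apoptotic proteins or activate BAX and BAK directly, and BAX and BAK then form pores that release cytochrome c and lead to caspase activation. Venetoclax occupies the groove of BCL2, and acute myeloid leukemia (AML) cells can also depend on MCL1, which venetoclax does not inhibit.

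Molm13 is a human AML cell line with a rearranged MLL gene, used here as cells that express Cas9. The 6 mRNA libraries came from cells given a guide RNA by lentivirus, 3 with control guides (sgCtrl) and 3 with guides against COX4I1 (sgCOX4I1). Both groups thus carried Cas9 and the guide vector, which holds a puromycin-resistance gene. The published methods describe puromycin selection for the library screens and do not name it for RNA-seq. Each of the 3 libraries of a group had a guide of its own, so the spread within a group holds differences between guides as well as between cultures. No cloning step is described, so each library is taken as a population and not as a clone. Neither the time from transduction to harvest nor separate cultures behind each library are given in the sources used here, and p-values measure the spread between these libraries only.

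COX4I1 mRNA was 513, 502 and 463 CPM (counts scaled to a common library total after TMM normalization) in sgCtrl #1 to #3, and 132, 378 and 133 CPM in sgCOX4I1 #1 to #3. Libraries sgCOX4I1 #1 and #3 held 26.7% and 27.0% of the sgCtrl mean, and library sgCOX4I1 #2 held 76.7%, so the library labelled sgCOX4I1 #2 stands apart from the other 2 of its group. Over all 6 libraries the log2 fold change of COX4I1 was -1.21 (SE 0.29, quasi-likelihood test in edgeR, adjusted p = 0.0512 after the Benjamini-Hochberg procedure), and without library #2 it was -1.89 (adjusted p = 3.37e-06). An mRNA level does not measure editing, since a frameshifted transcript can persist. Totals ran from 17241014 to 30861943 counts per library, and the members had between 182 counts (BAD) and 9035 counts (MCL1). Of 8 markers of myeloid leukemia cells all were detected, with summed levels of 3046 to 3823 CPM in sgCtrl and 3564 to 4736 CPM in sgCOX4I1 libraries, and without LYZ the other 7 summed to 1724 to 1897 CPM and 1465 to 1714 CPM. Of the 8, 6 had a log2 fold change below 0 and 1, MPO, passed the test (-1.06, edgeR adjusted p = 1.59e-05), while the erythroid markers HBA1 and HBB were at 0 in every library and the T cell markers summed to at most 0.0543 CPM. The part of any shift in myeloid genes in the values below was not tested.

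PMAIP1, which encodes the BH3-only protein NOXA, a partner that binds MCL1, was the member with the largest difference between the groups, followed by BAK1. The promoter of PMAIP1 is shown because a transcript level can change through this stretch, and it was chosen after its values were seen. RefSeq windows of 300 bases on GRCh38.p14, from 250 bases before to 50 bases after the transcription start, matched 9 of the 10 members (MCL1 had no entry). The PMAIP1 window lies on the plus strand at chr18:59899746-59900045. Capitals mark matches to the letters searched.
PMAIP1: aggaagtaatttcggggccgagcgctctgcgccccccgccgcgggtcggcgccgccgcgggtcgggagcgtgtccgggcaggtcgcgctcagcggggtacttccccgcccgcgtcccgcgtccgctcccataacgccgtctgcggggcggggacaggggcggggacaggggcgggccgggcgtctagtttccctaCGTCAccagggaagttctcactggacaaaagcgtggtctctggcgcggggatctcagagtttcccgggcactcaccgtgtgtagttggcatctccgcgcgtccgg
The capitals in PMAIP1 are the core of the cyclic AMP response element (TGACG), read on the minus strand from -55 to -51 relative to the start. On either strand, TGACG occurred in 24.6% of the 35116 RefSeq promoters and in 6 of the 15 promoters of members. These 6 belong to 5 of the 9 members with an entry, namely BAD, PMAIP1, BCL2, BAX and BCL2L1. Some members have several promoters, so the count of members cannot be compared with the share of promoters. The windows of BAD overlap and hold the same match. The full element TGACGTCA, which contains this core, was in 1.85% of the promoters, and the amino acid response element of ATF4 and CHOP (TGATGNAA) was in 3.62%, with no match to either in a member's window. The PMAIP1 window was 71.3% G or C, against a median of 58.7% over all promoters, and held 42 CpG dinucleotides. These matches describe letters only, and binding was not measured.

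Of the 10 members, 1 passed the test, PMAIP1, which rose in sgCOX4I1 cells. Over all genes tested, 247 (2.08%) had an adjusted p under 0.05, 126 of them higher and 121 lower in sgCOX4I1. With the added demand of at least a 2-fold change, 24 genes (0.202%) were called, and PMAIP1 was not among them. At an unadjusted p under 0.05, 2 members passed (PMAIP1 and BAK1), against 2054 (17.3%) of all genes. In 9 of the 10 members the log2 fold change was above 0, with a median of 0.11 over the 10, while 49.4% of all genes were above 0 and their median was -0.0023. Of these 9, BCL2L1, BBC3 and BAD changed sign when single libraries were left out, so the tally gives no direction for them. The absolute log2 fold change had a median of 0.16 over the members and 0.12 over all genes. In 5 members the 2 groups of libraries did not overlap, 4 of them higher in sgCOX4I1 (PMAIP1, BAK1, BAX and BCL2L11) and 1 lower (BCL2), where 21.6% of all genes had groups that did not overlap. In bulk RNA, fewer cells with a transcript and less of it per cell cannot be told apart.

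**Figure D1:**
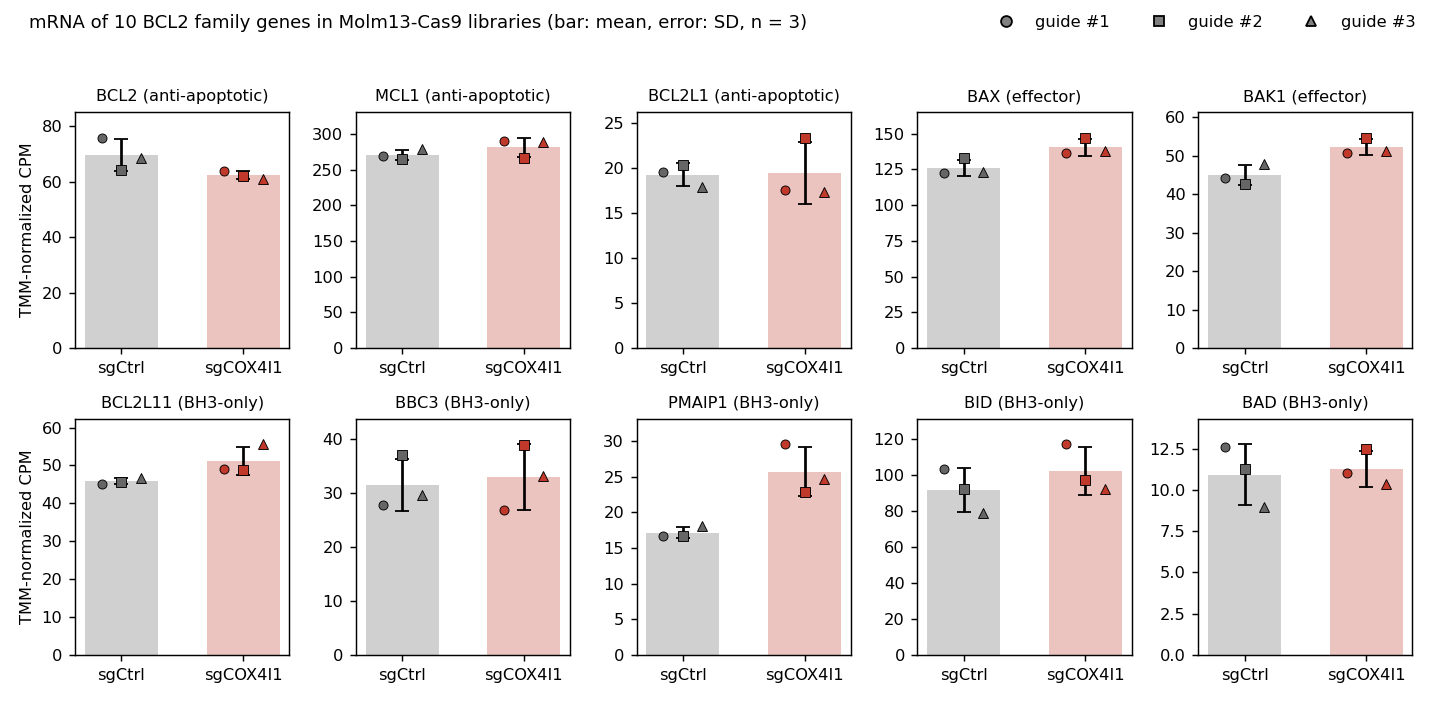
Each panel plots the TMM-normalized CPM of 1 member in the 3 sgCtrl (gray) and 3 sgCOX4I1 (red) libraries. Bars are means and error bars SD (n = 3), symbols mark the guide number, and each axis starts at 0 with its own range. The PMAIP1 panel has the widest separation, 16.7 to 18.1 CPM in gray against 22.8 to 29.6 CPM in red.

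Among the anti-apoptotic genes, BCL2, the protein that venetoclax inhibits, had 75.9, 64.3 and 68.5 CPM in sgCtrl #1 to #3 and 63.8, 62.1 and 61.0 CPM in sgCOX4I1 #1 to #3. The 3 sgCOX4I1 libraries lay just under the lowest sgCtrl library, and sgCtrl #1 was the highest of the 6. The means were 69.5 ± 5.85 and 62.3 ± 1.43 CPM (SD, n = 3), a log2 fold change of -0.16 (95% interval -0.33 to 0.014, edgeR adjusted p = 0.330). The interval spans levels from 0.794 to 1.01 times that of sgCtrl.

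MCL1, an anti-apoptotic protein with a short half-life that NOXA binds, had 269, 264.5 and 279 CPM in sgCtrl and 290, 266 and 289 CPM in sgCOX4I1 libraries #1 to #3. The groups overlapped, with sgCOX4I1 #2 at the level of the controls. Its log2 fold change was 0.057 (95% interval -0.097 to 0.21, edgeR adjusted p = 0.737), which leaves room for levels from 0.935 to 1.16 times that of sgCtrl.

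BCL2L1, the gene of BCL-XL, was at 19.5, 20.4 and 17.9 CPM in sgCtrl and at 17.6, 23.4 and 17.4 CPM in sgCOX4I1 libraries. Libraries #1 and #3 lay just under the lowest control and library #2 lay above every control, so the sgCOX4I1 libraries were not all on the same side of the controls. The log2 fold change was 0.0055 (95% interval -0.27 to 0.28, edgeR adjusted p = 0.987), and leaving out 1 library at a time turned its sign, between -0.14 and 0.083. Antisense exons of ABALON cover 41.3% of the exon bases of BCL2L1, and whether the counting used strand is not stated, so reads of both genes may be mixed.

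The effectors BAX and BAK1 were both slightly higher in sgCOX4I1 libraries, and neither passed the test. BAK1, whose protein resides in the outer mitochondrial membrane, had 44.2, 42.7 and 47.9 CPM in sgCtrl and 50.7, 54.7 and 51.2 CPM in sgCOX4I1 libraries #1 to #3. All 3 sgCOX4I1 libraries lay above all 3 controls. The means were 44.9 ± 2.69 and 52.2 ± 2.16 CPM (SD, n = 3), and the log2 fold change was 0.22 (SE 0.081, 95% interval 0.041 to 0.39, edgeR adjusted p = 0.188).

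BAX, which resides mainly in the cytosol until it is activated, had 122, 133 and 123 CPM in sgCtrl and 136, 147 and 138 CPM in sgCOX4I1 libraries. The groups did not overlap, and in each of them library #2 was the highest. Equal numbers stand for different guides in sgCtrl and sgCOX4I1. The log2 fold change was 0.15 (SE 0.073, 95% interval -0.0024 to 0.31, edgeR adjusted p = 0.296). The log2 ratio of BAX to BAK1 CPM was 1.49 ± 0.137 in sgCtrl and 1.43 ± 0.00241 in sgCOX4I1 (SD, n = 3), and the groups overlapped.

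Among the 5 BH3-only genes, PMAIP1 (chr18:59899996-59904305, plus strand, GRCh38) had 16.7, 16.7 and 18.1 CPM in sgCtrl #1 to #3 and 29.6, 22.8 and 24.8 CPM in sgCOX4I1 #1 to #3, from 306, 308 and 368 counts and 664, 393 and 774 counts. The controls lay close together, and every sgCOX4I1 library lay above all of them. Relative to the sgCtrl mean, the sgCOX4I1 libraries stood at 172%, 133% and 144%. The means were 17.2 ± 0.797 and 25.7 ± 3.47 CPM (SD, n = 3), a fold change of 1.5 (95% interval 1.26 to 1.78), or 0.58 on the log2 scale (SE 0.11, edgeR adjusted p = 0.0210). Ordered by p, PMAIP1 was 96th of the genes tested. Library sgCOX4I1 #2, in which COX4I1 was least reduced, was also the lowest of its group for PMAIP1. However, libraries #1 and #3 had like COX4I1 levels (26.7% and 27.0% of the sgCtrl mean) and PMAIP1 at 172% and 144%. BAK1 and BAX were highest in library #2 of that group. A relation between COX4I1 and the members over libraries was not tested.

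The PMAIP1 call depended on single libraries. Without sgCtrl #2 the log2 fold change was 0.57 with an adjusted p of 0.166 by edgeR, and without sgCOX4I1 #1 it was 0.48 with an adjusted p of 0.0559. Without sgCOX4I1 #2 it was 0.66 (edgeR adjusted p = 0.0468). DESeq2 gave 0.58 with an adjusted p of 0.00103. No other annotated gene shares exon bases with PMAIP1. Without sgCOX4I1 #2, the other members with groups that did not overlap had log2 fold changes of -0.16 (BCL2), 0.18 (BAK1), 0.12 (BAX) and 0.19 (BCL2L11), with edgeR adjusted p from 0.374 to 0.540.

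**Figure D2:**
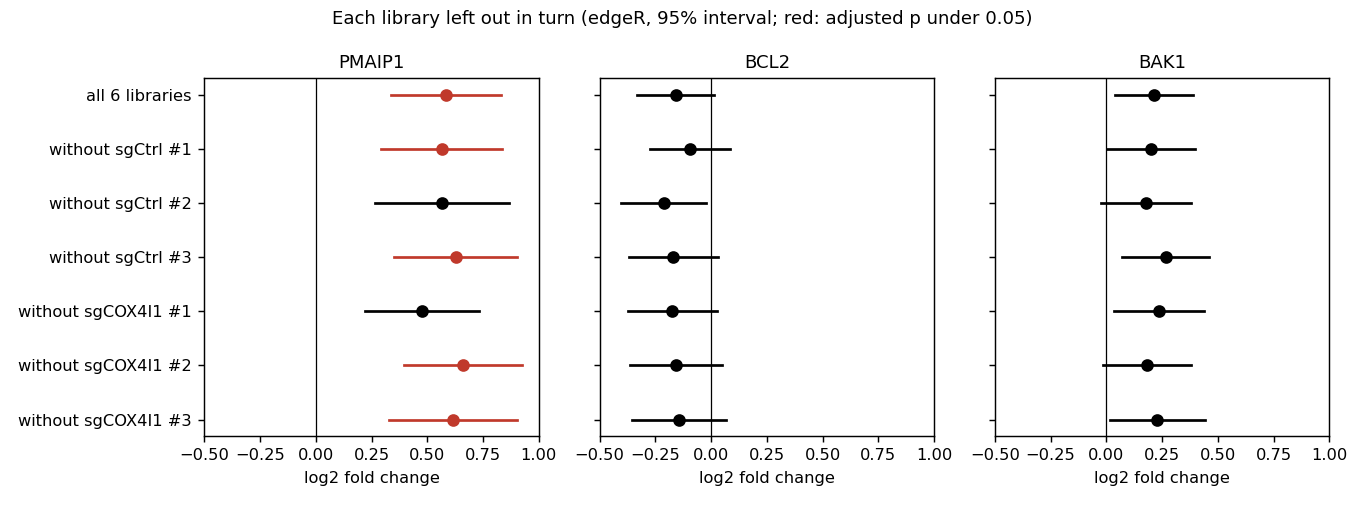
Log2 fold change (sgCOX4I1 over sgCtrl, with its 95% interval from edgeR) of PMAIP1, BCL2 and BAK1 with all 6 libraries and with each library left out, drawn in red where the adjusted p was under 0.05. PMAIP1 ran from 0.48 to 0.66 and lost its call without sgCtrl #2 or sgCOX4I1 #1, BAK1 ran from 0.18 to 0.27 and BCL2 from -0.21 to -0.094, with no call in either.

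BCL2L11, the gene of BIM, a BH3-only protein that binds all anti-apoptotic members and activates BAX and BAK, had 45.2, 45.6 and 46.7 CPM in sgCtrl and 49.2, 48.9 and 55.6 CPM in sgCOX4I1 libraries. The groups did not overlap, and library sgCOX4I1 #3 stood above the other 2 of its group. The log2 fold change was 0.16 (95% interval -0.014 to 0.34, edgeR adjusted p = 0.330). Exons of MIR4435-2HG on the opposite strand cover 10.8% of its exon bases.

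BBC3, the gene of PUMA, a BH3-only protein that binds all anti-apoptotic members, had 27.8, 37.0 and 29.6 CPM in sgCtrl and 26.8, 38.9 and 33.1 CPM in sgCOX4I1 libraries. The groups overlapped, and in both of them library #2 had the highest and library #1 the lowest value. The log2 fold change was 0.063 (95% interval -0.23 to 0.35, edgeR adjusted p = 0.855), and its sign turned when single libraries were left out, from -0.067 to 0.19.

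BID, which caspase-8 cleaves to link death receptors to the mitochondria, had 103, 92.0 and 79.0 CPM in sgCtrl and 117, 97.0 and 92.2 CPM in sgCOX4I1 libraries. In both groups the level was highest in library #1 and lowest in library #3, and the groups overlapped. The log2 fold change was 0.16 (95% interval -0.071 to 0.39, edgeR adjusted p = 0.481).

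BAD, a sensitizer that survival signalling holds inactive by phosphorylation, had 12.6, 11.2 and 8.94 CPM in sgCtrl and 11, 12.5 and 10.4 CPM in sgCOX4I1 libraries. The groups overlapped. The log2 fold change was 0.043 (95% interval -0.28 to 0.36, edgeR adjusted p = 0.916), and it ran from -0.083 to 0.16 with single libraries left out. Opposite-strand exons of GPR137 cover 23.7% of the exon bases of BAD.

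Because NOXA and MCL1, and BIM and BCL2, bind each other as proteins, the mRNA ratios were compared within libraries, as a description. The log2 ratio of PMAIP1 to MCL1 CPM was -4.01, -3.98 and -3.95 in sgCtrl and -3.29, -3.54 and -3.55 in sgCOX4I1 libraries. All 3 sgCOX4I1 libraries were above the controls, by 0.52 between the means. MCL1 itself had a log2 fold change of 0.057, so this ratio mostly repeats the values of PMAIP1. The log2 ratio of BCL2L11 to BCL2 was higher by 0.31 and that of BCL2 to MCL1 lower, with a difference of -0.21 between the means. In both ratios the groups did not overlap. For BCL2L11 to BCL2 this follows from both genes, whose own groups did not overlap and lay in opposite directions. How often ratios of other gene pairs separate was not tested. The ratios of BCL2 to BCL2L1 (difference -0.16) and of BBC3 to BCL2 (difference 0.22) overlapped between the groups. Protein amounts were not measured in these libraries.

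To compare levels between genes, CPM was divided by the length of the merged exons of each gene in GENCODE 44. In sgCtrl libraries BAX was the highest member with 48.8 ± 2.19 CPM per kilobase (SD, n = 3), followed by MCL1 with 43.5 ± 1.20. BID (20.7 ± 2.74) and BAK1 (20.3 ± 1.21) came next and overlapped between libraries. BBC3 followed with 9.88 ± 1.53 CPM per kilobase, PMAIP1 with 7.85 ± 0.365 and BCL2L11 with 6.80 ± 0.112. BAD (6.40 ± 1.08), BCL2 (5.51 ± 0.464) and BCL2L1 (4.59 ± 0.300) were the lowest. The neighbours BCL2L11 and BAD, and BAD and BCL2, overlapped between libraries, and the other neighbours did not. Of the anti-apoptotic transcripts, MCL1 was thus the most abundant, at 7.19 to 9.61 times the level of BCL2 per kilobase in each of the 6 libraries, with means of 7.93 ± 0.642 in sgCtrl and 9.17 ± 0.461 in sgCOX4I1. In sgCOX4I1 libraries PMAIP1 reached 11.8 ± 1.59 CPM per kilobase. The fold of MCL1 over PMAIP1, which is the ratio above with length included, was 5.55 ± 0.123 in sgCtrl and 3.88 ± 0.376 in sgCOX4I1 (SD, n = 3), with no overlap. With the length of the longest coding transcript in place of merged exons, 6 of the 10 members kept their place, and PMAIP1 and BCL2L11 came after BAD and BCL2.

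**Figure D3:**
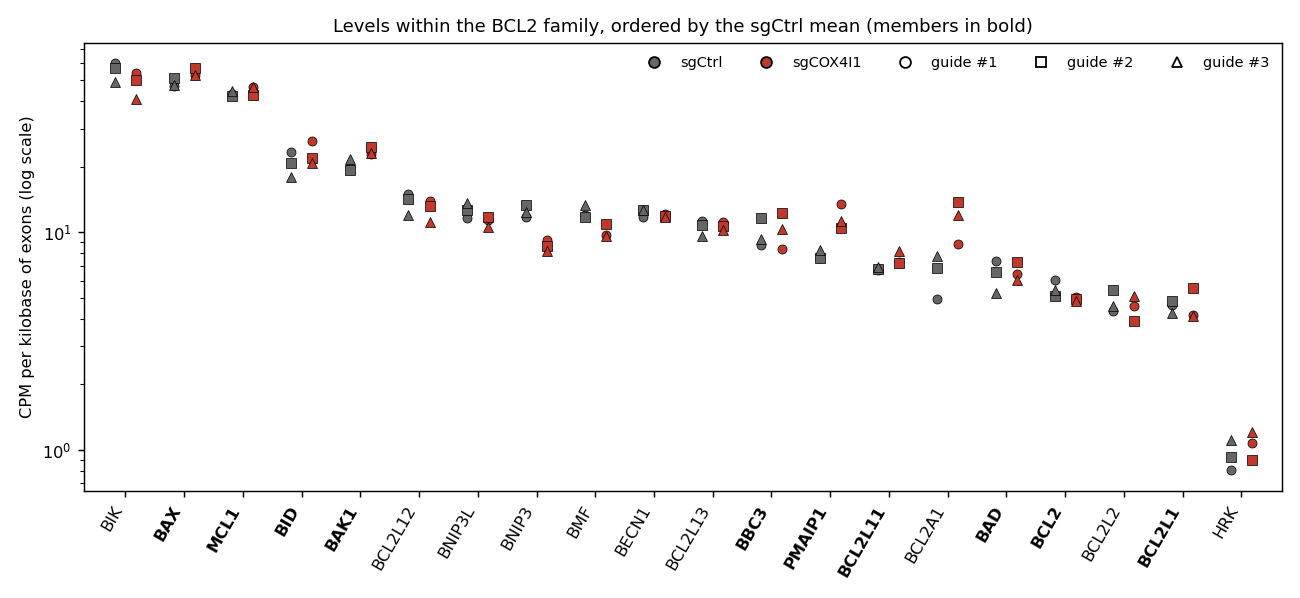
CPM per kilobase of merged exons (log axis) of the 10 members (bold) and other BCL2 family genes in each library, ordered by the sgCtrl mean. Gray is sgCtrl, red is sgCOX4I1 and the symbol marks the guide. BIK, BAX and MCL1 lie highest, BCL2 and BCL2L1 lie among the lowest, and the 4 genes below HRK (BCL2L10, BCL2L15, BOK and BCL2L14) are not drawn.

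A further 14 genes of the wider BCL2 family were examined, of which 11 passed the filter on low counts. The 2 (18.2%) that passed the test, against 2.08% of all genes, were BCL2A1, which rose, and BNIP3, which fell. The median log2 fold change of the 11 was -0.068 against -0.0023 over all genes. BCL2A1, the gene of the anti-apoptotic protein BFL-1, had 4.90, 6.84 and 7.76 CPM in sgCtrl and 8.78, 13.8 and 11.9 CPM in sgCOX4I1 libraries. Every sgCOX4I1 library was above every control, with a log2 fold change of 0.81 (SE 0.20, edgeR adjusted p = 0.0488). This call was lost without sgCtrl #1 (0.64, edgeR adjusted p = 0.0537), sgCtrl #2 (0.85, adjusted p = 0.233), sgCOX4I1 #2 (0.67, adjusted p = 0.203) or sgCOX4I1 #3 (0.78, adjusted p = 0.126). BNIP3, a hypoxia-induced outer-membrane protein that recruits mitochondria for autophagy, had 47.6, 54.0 and 50.3 CPM in sgCtrl and 37.3, 34.9 and 33.4 CPM in sgCOX4I1 libraries, again without overlap. Its log2 fold change was -0.53 (SE 0.086, edgeR adjusted p = 0.00809), and the call was lost without sgCtrl #2 (-0.48, adjusted p = 0.10) or sgCOX4I1 #2 (-0.52, adjusted p = 0.0565). BIK, a BH3-only gene, was at 55.5 ± 5.68 CPM per kilobase of merged exons in sgCtrl and 48.5 ± 6.82 in sgCOX4I1 (SD, n = 3). It overlapped BAX in both groups, with a lower mean than BAX (54.3 ± 2.34) in sgCOX4I1. Per kilobase of the longest coding transcript, which for BIK has the same length, BAX (92.9 ± 4.18) and MCL1 (68.6 ± 1.89) were above it in sgCtrl. In contrast, the effector gene BOK was at 0 in 5 of 6 libraries and BCL2L14 at 0 in all 6.

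**Figure D4:**
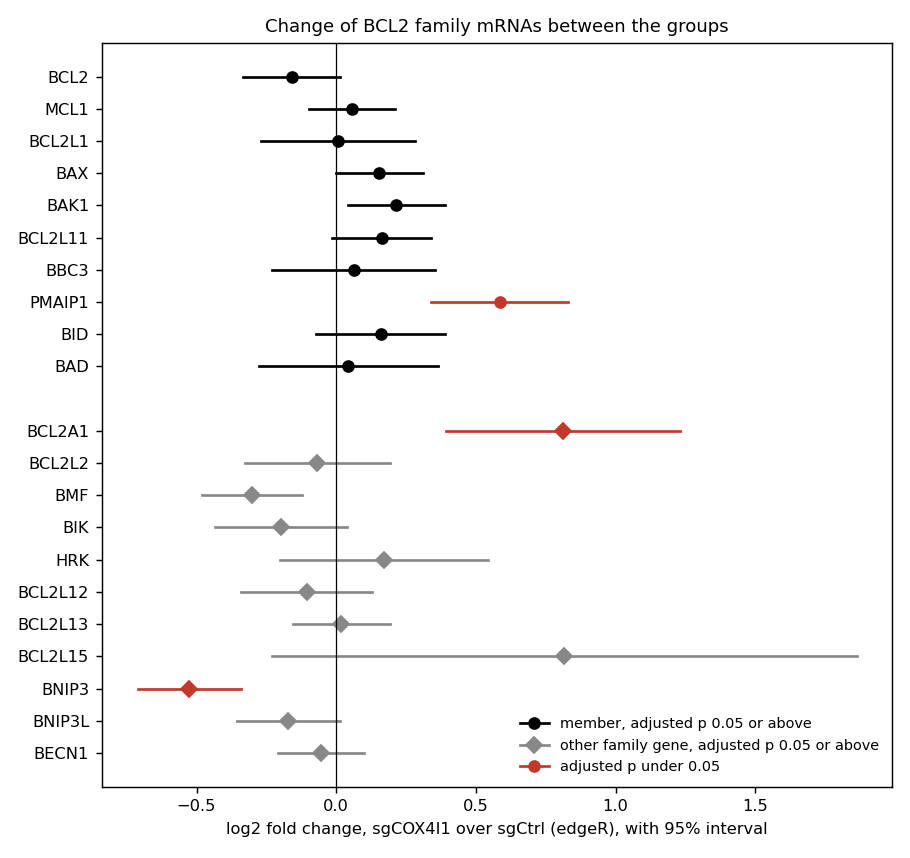
Log2 fold change (sgCOX4I1 over sgCtrl) with its 95% interval from edgeR for the 10 members (circles) and the 11 other family genes tested (diamonds), in red where the adjusted p was under 0.05. PMAIP1 and BCL2A1 lie to the right of 0 and BNIP3 to the left, and 8 of the other 9 members have intervals that include 0, BAK1 being the exception. Among the other family genes not called, the BH3-only gene BMF has an interval below 0 (-0.48 to -0.12, edgeR adjusted p = 0.0819).

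Of the apoptosis machinery around and after BAX and BAK, 21 genes of cytochrome c release, caspases, their inhibitors, the nuclease and outer-membrane channels were tested. By edgeR 0 of them were called, against 2.08% of all genes, and 6 (28.6%) had an unadjusted p under 0.05, against 17.3% of all genes. Their median log2 fold change was -0.010, against -0.0023 over all genes. DESeq2 called 1, CASP8 (adjusted p = 0.0301), the initiator caspase of death receptors, which acts before BAX and BAK through BID, and limma-voom called 0. CASP8 had 42.5, 44.6 and 38.8 CPM in sgCtrl and 36.1, 30.1 and 31.3 CPM in sgCOX4I1 libraries, with no overlap and a log2 fold change of -0.37 (edgeR adjusted p = 0.0648). DFFA, the inhibitor of the apoptotic DNase, followed with 0.29 (edgeR adjusted p = 0.0892) and BIRC5, the gene of survivin, with -0.26 (edgeR adjusted p = 0.128).

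Of 11 genes that control transcription of the family or turnover of its proteins, 1 (9.09%) passed the test, against 2.08% of all genes, and the median log2 fold change was 0.041, against -0.0023 over all genes. This was E2F1, a cell-cycle transcription factor, with 44.5, 49.6 and 46.2 CPM in sgCtrl and 37.1, 34.9 and 37.7 CPM in sgCOX4I1 libraries, where it fell by 0.35 on the log2 scale (SE 0.083, edgeR adjusted p = 0.0437). All 3 sgCOX4I1 libraries were below the controls. The call held without sgCtrl #1 and was lost without any other single library, with edgeR adjusted p from 0.0646 (without sgCtrl #3) to 0.253 (without sgCtrl #2) and log2 fold changes from -0.38 to -0.31. The factors ATF4 and CHOP, for whose element the promoters were searched, had groups that overlapped, with 583 ± 62.2 CPM in sgCtrl and 582 ± 39.2 CPM in sgCOX4I1 for ATF4 (SD, n = 3), and 24.7 ± 4.59 and 28.7 ± 3.32 CPM for DDIT3, the gene of CHOP. They are named for that reason, and the activity of their proteins was not measured.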

How the data were processed

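RNA-seq was performed on 6 Molm13-Cas9 libraries, 3 with sgCtrl and 3 with sgCOX4I1 guides. The authors deposited whole-number counts per gene symbol, not normalized. The submitters' processing notes name bcl2fastq 2.20.0.422, STAR 2.6.0a, edgeR and GRCh38, whereas the published methods describe Trimmomatic, Bowtie2 and RSEM, and the column names point to STAR, duplicate marking and HTSeq. Which of these made the counts, and whether strand was used, could not be settled. Removal of duplicates would lower the counts of abundant genes most. Columns were assigned to samples by the letter and guide number in their names, with C read as control and K as knockout.

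Counts were analysed in R 4.3.3 with edgeR 4.0.16. Low counts were removed with filterByExpr, libraries were scaled by TMM, and the quasi-likelihood test was fitted to the 6 libraries with the group as its only term. Benjamini-Hochberg adjustment covered all 11861 genes tested, and a gene was called at an adjusted p under 0.05. The added demand of at least a 2-fold change is given where used. Levels are TMM-normalized CPM, with replicates as mean ± SD. Permuting 3 against 3 libraries exactly cannot give a two-sided p below 0.1, so no such test was used for single genes. A count of 0 limits a gene to 0.0972 to 0.174 CPM, depending on the library (3 counts, counting error only). Replicates differed by more than sampling noise (chi-square per degree of freedom 10.6 to 26.6), so none was a copy of another.

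Exon lengths, overlaps and coordinates came from GENCODE 44 on GRCh38, and promoters from RefSeq (GRCh38.p14). The scripts were tested on simulated data. Some genes of the lists and one motif are not reported here. The members and the other gene lists were chosen with earlier results of these data known. Besides the members and COX4I1, genes were named by rule: called genes of each list, or else its 3 with the smallest adjusted p, and the 3 genes (averaging 10 CPM or more) closest in profile to the member with the smallest p. Alternatives were DESeq2 1.42.0, limma-voom (limma 3.58.1), other scaling and filters, the replicate number as a block, each library left out in turn, and another gene length.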

Additional observations from a re-analysis of the deposited data

How the results depend on the processing

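PMAIP1 kept its direction under all 13 alternatives (log2 fold change 0.48 to 0.66) and its call in 11 of them, with adjusted p from 0.00103 to 0.166. BCL2, MCL1, BAX, BAK1, BCL2L11 and BID also kept their direction in all 13 and were called in none of them. BCL2L1 was -0.023 with limma-voom and ran from -0.14 to 0.083 with single libraries left out, BBC3 from -0.067 to 0.19 and BAD from -0.083 to 0.16, so the data give no direction for these 3 genes. Counts of 182 to 324 for BAD limit its precision.

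Genes called with at least a 2-fold change numbered 24, and 41 without the filter on low counts, 57 with the replicate block and 9 (without sgCtrl #2) to 50 (without sgCtrl #3) with single libraries left out. By adjusted p alone, the 247 became 466 with DESeq2, 537 without the filter, 1408 with the block and 24 (without sgCtrl #2) to 561 (without sgCtrl #1) with single libraries left out, among them 51 without sgCOX4I1 #2 and 89 without sgCOX4I1 #3, so a call near the threshold depends on these choices. Members called ran from 0 to 1 with single libraries left out. The other BCL2 family genes called (2) became 1, BNIP3, without TMM, with DESeq2 size factors and with limma-voom, and 0 to 2 with single libraries left out. The list of apoptosis machinery (0) gave 1, CASP8, with DESeq2 and without the filter, and 0 to 1 with single libraries left out (CASP8 without sgCtrl #3 or sgCOX4I1 #1, CYCS without sgCtrl #1). The regulators (1) gave 0 without TMM and 0 to 2 with single libraries left out. COX4I1 was called in 6 of the 13 alternatives, among them without the filter on low counts (-1.20), with limma-voom (-1.40) and with the block, and its adjusted p ran from 3.37e-06 to 0.272, with 0.234 by DESeq2. It ran from -1.89 to -0.95 with single libraries left out, called without sgCtrl #1, sgCtrl #3 or sgCOX4I1 #2 and not without the others. Of the 10 places in the order of levels, 6 were kept with the longest coding transcript as length.

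The replicate numbers do not pair the samples by their labels. Deviations from the group means of libraries with the same number correlated across genes at 0.38, -0.024 and 0.29 for numbers 1, 2 and 3, and not every library correlated best with its own number, so the block rests on a shared number only. With the replicate block PMAIP1 was again the only member called (log2 fold change 0.58, adjusted p = 0.00151), BAK1 had an adjusted p of 0.0570 and BAX 0.0776. That fit called 1408 of all 11861 genes, against 247 without the block, so calls rose over all genes. In it the other BCL2 family genes gave 3 calls of 11 (BCL2A1, BNIP3 and the BH3-only gene BMF). Without the block BMF had a log2 fold change of -0.30 and an edgeR adjusted p of 0.0819. With the block the apoptosis machinery gave 5 calls of 21 (BIRC5, CASP2, CASP8, CYCS and DFFA) and the regulators 2 of 11 (E2F1 and MYC). COX4I1 had a log2 fold change of -1.39 in that fit.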

Other observations

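Over the 6 libraries, the 3 genes whose centred log2 CPM lay closest to that of PMAIP1, among 8995 genes averaging 10 CPM or more, were CAV1, the gene of the membrane scaffold protein caveolin-1, CDC42EP1, an effector of the GTPase CDC42, and PLAC8. Their Euclidean distances to PMAIP1 were 0.13, 0.19 and 0.20 on the log2 scale. CAV1 had 9.92, 9.88 and 11.1 CPM in sgCtrl and 18.6, 13.2 and 13.9 CPM in sgCOX4I1 libraries #1 to #3, with library #1 highest as for PMAIP1 (log2 fold change 0.56, edgeR adjusted p = 0.0631). CDC42EP1 had 23.0, 20.0 and 22.0 CPM in sgCtrl and 34.8, 29.4 and 31.9 CPM in sgCOX4I1 libraries (0.57, edgeR adjusted p = 0.0133), a call lost without sgCtrl #2 (0.51, adjusted p = 0.132). PLAC8 had 194.5, 199.5 and 192 CPM in sgCtrl and 308, 275 and 291 CPM in sgCOX4I1 libraries (0.58, edgeR adjusted p = 0.00154). As in PMAIP1, the order of the sgCOX4I1 libraries was #1, #3 and #2 in all 3 genes. This order and the like fold changes follow from choosing the genes by their profile over the same libraries, and are no separate result. Genes chosen for a like profile over 6 libraries need share nothing else, and their distances carry no test.

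Of the 8 myeloid markers, 6 had a log2 fold change below 0 (MPO, FLT3, HOXA9, MEIS1, CEBPA and SPI1) and 2 above 0 (LYZ and CD33), and 1, MPO, was called by edgeR. Values are given for 2 of them, chosen after they were seen. MPO, a granule enzyme, was at 228, 219 and 235 CPM in sgCtrl and at 117, 105 and 106 CPM in sgCOX4I1 libraries, and LYZ, the gene of lysozyme, at 1149, 1520 and 2100 CPM in sgCtrl and 2026, 3022 and 3104 CPM in sgCOX4I1 libraries. In MPO the 2 groups did not overlap, with a log2 fold change of -1.06 (edgeR adjusted p = 1.59e-05), the smallest p of all genes tested. In LYZ they overlapped (0.77, edgeR adjusted p = 0.0534), and FLT3 (-0.23, adjusted p = 0.190) and HOXA9 (-0.21, adjusted p = 0.236) did not pass the test.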
